A study of Mus musculus with 7 samples.

Results

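The genes described here are 36 genes that hepatic stellate cells, other liver mesenchyme, the mesothelium and their extracellular matrix make in fetal mouse liver. They were taken as a named list, not by a threshold on a measured value, and were looked up by gene symbol among the 39017 genes of the deposited count files. All 36 were found, and all 36 passed the filter on low counts that left 15800 genes for testing; the lowest single count among them was 12 reads. The 7 RNA-seq libraries came from whole fetal livers at E12.5, dissociated to single cells, of 3 genotype groups on the C57BL/6 strain. The study removed TAF10, a subunit that the general transcription factor TFIID and the SAGA coactivator share, from red cell precursors with a Cre driven by the erythropoietin receptor gene.

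Each library title carries a code in the form of a date, and what the date records is not stated in the labels. The 4 livers titled E12.5_290410, called the second code here, were 1 TAF10KO, 2 TAF10HET and 1 WT, and the 3 livers titled E12.5_090410, the first code, were 1 TAF10KO, 1 TAF10HET and 1 WT. The TAF10KO titles read lox/lox with EpoCre, whereas the series text gives these mice a lox and a KO allele with EpoR-Cre. TAF10HET livers also carried EpoCre, with alleles wt/ko under the second code (replicates 2 and 3) and lox/wt under the first code (replicate 1), so that allele and date code cannot be told apart within TAF10HET. WT livers were lox/lox without Cre, so TAF10KO and TAF10HET differ from WT by the Cre transgene as well as by the Taf10 alleles. Each library is a different numbered fetal liver. The Cre driver is erythroid, and the genes described here are not known as erythroid genes. The targeted gene Taf10 stood at 43.8 CPM in TAF10KO, 63.6 and 63.00 in TAF10HET and 96.4 in WT of the second code, against 37.8 in TAF10KO, 78.01 in TAF10HET and 71.9 in WT of the first code, lowest in TAF10KO under both codes. CPM divide each count by the total of its library in genes, corrected by a TMM factor, and bring all libraries to 1 common total; the depth was 18008391 to 43401474 counts in genes per library.

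Hepatic stellate cells lie between the sinusoidal endothelium and the hepatocytes, store vitamin A as retinyl esters, and are the main producers of collagen in liver. In the fetus they arise from mesenchyme beneath the mesothelium, the cell layer that covers the liver, and they secrete growth factors and the chemokine that holds haematopoietic stem cells in the organ. Fibrillar collagens form tensile fibres, collagen IV and nidogen build basement membranes, and small proteoglycans bind to the fibres and set their spacing.

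The 36 genes were all lower in the second-code livers than in the first-code livers. Their summed level was 1264 CPM in TAF10KO, 905 and 930.1 CPM in TAF10HET and 906 CPM in WT of the second code, against 4079.9 CPM in TAF10KO, 5187 CPM in TAF10HET and 3451 CPM in WT of the first code. The mean was 1001 ± 175 CPM in the second-code livers (SD, n = 4) and 4239 ± 879 CPM in the first-code livers (SD, n = 3), a 4.23-fold difference. In an edgeR quasi-likelihood fit with terms for genotype and date code, 36 of 36 genes fell under the second code at an adjusted p below the threshold of 0.05, where 22.7% of all genes tested fell and 18.7% rose, 41.4% in all. The median log2 difference, second code over first code, was -2.35 over the 36 genes and 0.02 over all genes. With upper-quartile factors in place of TMM, the calls over all genes were 4056 lower and 1832 higher in place of 3580 lower and 2956 higher, and all 36 genes still fell. The labels name separate livers but not their litters, so p-values measure the spread between these libraries.

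For each of the 36 genes, every second-code library was below every first-code library, a separation seen in 23.6% of all genes tested. The direction held within each genotype: the 36 genes were all lower under the second code in TAF10KO, in TAF10HET and in WT, with median log2 differences of -1.63 in TAF10KO, -2.72 in TAF10HET and -2.36 in WT. The log2 difference was under -2 for 26 genes and above -1 for 2. In RNA from whole livers, fewer cells of a type and less RNA per cell cannot be told apart. With the 3 TAF10HET libraries left out, all 36 differences were below 0 and 34 passed the threshold. Dcn at -2.18 and Col6a2 at -2.12 did not pass.

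**Figure D1:**
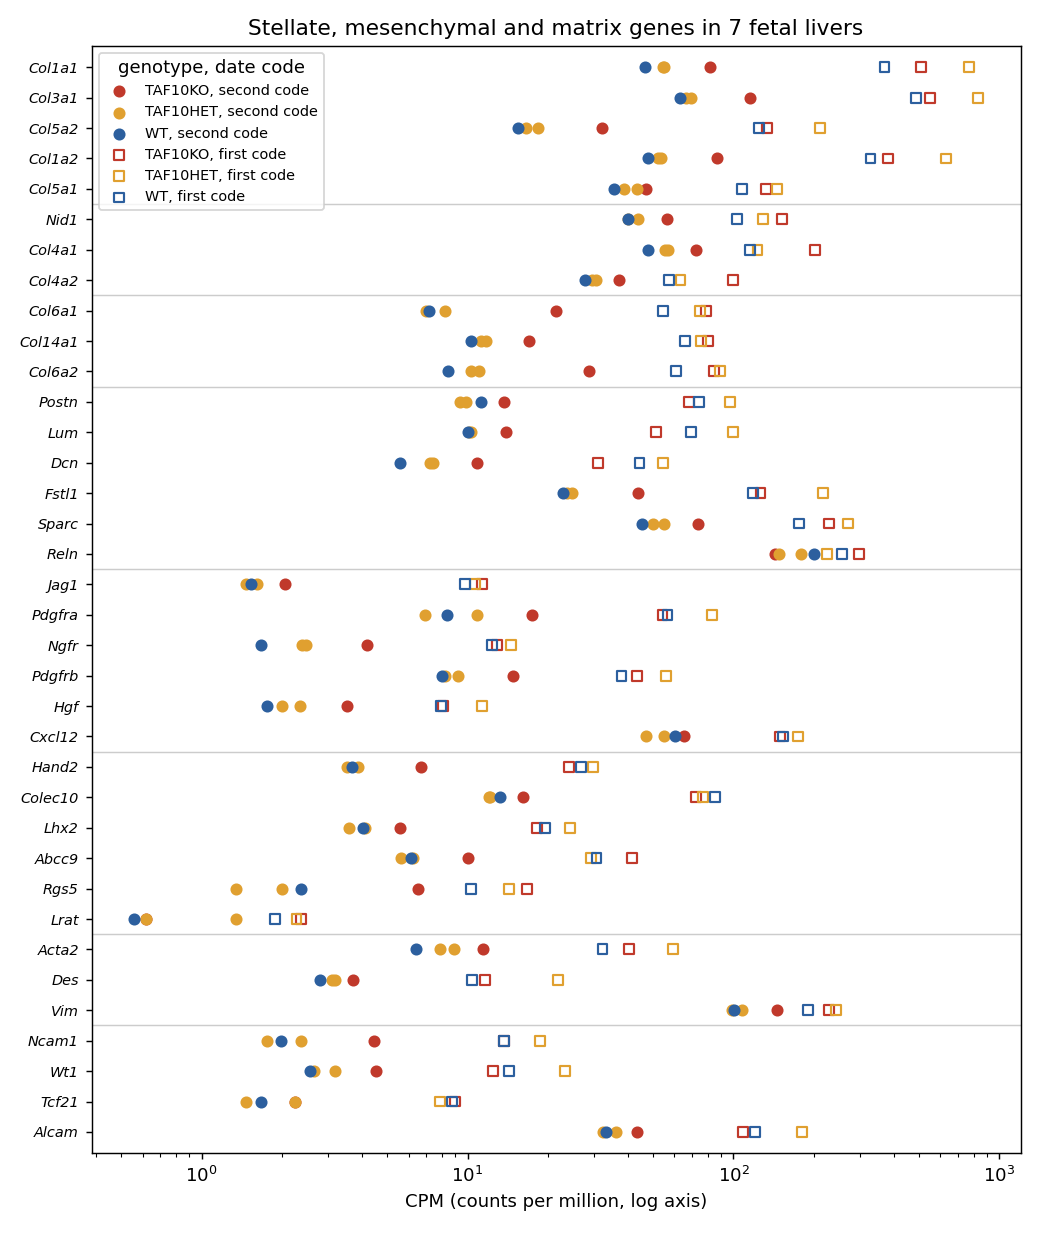
Level of each of the 36 genes in each of the 7 libraries, in CPM on a log axis, with second-code and first-code libraries in different markers and the genotypes in different colours. Every gene has its second-code points below its first-code points; the smallest separations are those of Reln and Vim.

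Genes that mark other cells moved with the date code as well. Hepatocyte markers fell in 13 of 16 genes with a median of -0.45, endothelial markers in 13 of 14 with -0.87 and macrophage markers in 7 of 11 tested with -0.51, while 9 of 14 erythroid genes rose with 0.46, as did 3 of 9 neutrophil and 2 of 8 megakaryocyte genes. The 36 genes summed to 8.77% of the hepatocyte marker level in TAF10KO, 6.18% and 6.10% in TAF10HET and 4.81% in WT of the second code, against 17.6% in TAF10KO, 25.4% in TAF10HET and 15.2% in WT of the first code. The fall was still 3.0-fold relative to hepatocyte genes, and it was 2.40-fold relative to endothelial genes. The 6 markers of stomach, gut, lung and limb mesenchyme that could be tested all fell with a median of -1.92, and their list summed to 12.7 to 25.9 CPM under the second code and 86.9 to 118 CPM under the first code. Their part in the result was not tested.

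**Figure D2:**
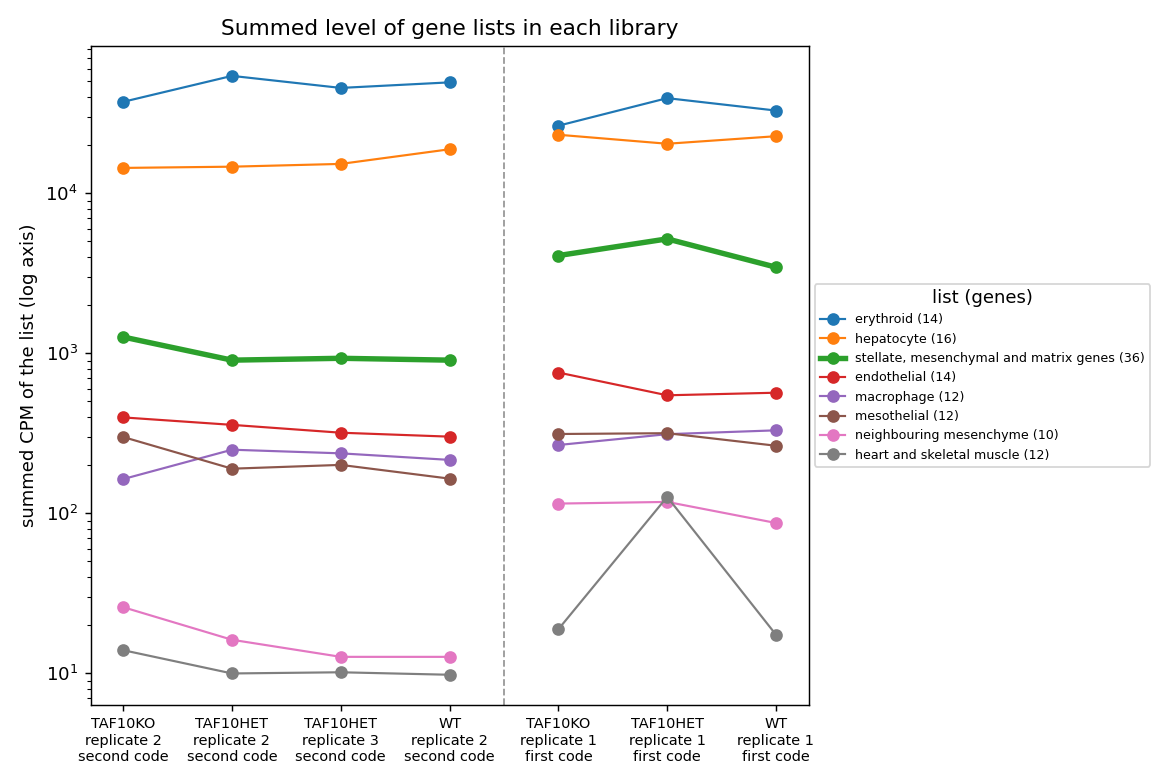
Summed CPM of the 36 genes and of marker lists for other cell types in each library, on a log axis. The 36 genes sum to 905 to 1264 CPM in the 4 libraries of the second code and to 3451 to 5187 CPM in the 3 libraries of the first code.

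One library stood apart in a way that touches this comparison. The heart and skeletal muscle list summed to 127 CPM in TAF10HET replicate 1, against 17.4 to 18.8 CPM in the other first-code livers and 9.78 to 13.9 CPM in the second-code livers. Its leading genes there were Actc1 at 49.1 CPM, Myog at 13.96 CPM and Acta1 at 11.1 CPM, which encode muscle actins and a myogenic transcription factor, and the atrial gene Nppa was at 0 in every library. Of the 7 genes of this list that could be tested, 3 fell under the second code, with a median of -1.93 over the 7. The 3 were the heart genes Tnnt2 (-3.14) and Myl7 (-1.66) and the muscle gene Tnni1 (-1.45). The same library was the highest of the 3 of the first code for 24 of the 36 genes, where it was highest for 34.8% of all genes. Without it all 36 genes still fell, with a median of -2.07.

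The 5 fibrillar collagen genes moved furthest as a group, with a median log2 difference of -2.96 and a summed level 7.32 times higher under the first code. Col1a1 and Col1a2 encode the chains of type I collagen, the main collagen of connective tissue fibres. Col1a1 had 81.5 CPM in TAF10KO, 54.9 and 54.5 in TAF10HET and 46.3 in WT of the second code, against 507 in TAF10KO, 768 in TAF10HET and 369.6 in WT of the first code. Col1a2 had 86.7 CPM in TAF10KO, 51.9 and 53.4 in TAF10HET and 47.8 in WT of the second code, against 380.4 in TAF10KO, 628 in TAF10HET and 328 in WT of the first code. In both genes the TAF10KO liver was the highest of the second code and the TAF10HET liver the highest of the first code, and the codes did not overlap. Col1a1 fell by 3.23 on the log2 scale (SE 0.219, adjusted p = 0.000305), and only 42 of the 15800 genes tested had a lower value. Col1a2 differed by -2.92 (SE 0.269, adjusted p = 0.00106). Per kilobase of exon, Col1a1 was 1.78 to 2.52 times as abundant as Col1a2 over the 7 libraries, with means of 1.89 under the second code and 2.33 under the first code.

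Type III collagen, encoded by Col3a1, assembles into fibres with type I. Col3a1 had 116 CPM in TAF10KO, 66.5 and 69.4 in TAF10HET and 62.7 in WT of the second code, against 547 in TAF10KO, 833 in TAF10HET and 484 in WT of the first code, a log2 difference of -3.02. Type V collagen starts the assembly of fibrils and is encoded in part by Col5a1 and Col5a2. Col5a1 had 46.96 CPM in TAF10KO, 43.5 and 38.9 in TAF10HET and 35.5 in WT of the second code, against 133 in TAF10KO, 146 in TAF10HET and 107 in WT of the first code. Col5a2 had 31.98 CPM in TAF10KO, 18.4 and 16.6 in TAF10HET and 15.5 in WT of the second code, against 134 in TAF10KO, 212 in TAF10HET and 125 in WT of the first code. The chains of type V moved unequally, by -1.66 (SE 0.0804, adjusted p = 0.00012) for Col5a1 and -2.96 (SE 0.293, adjusted p = 0.00172) for Col5a2. Col3a1 and Col5a2 are neighbours on chromosome 1 (mm10), at 45311538 to 45349706 and 45374321 to 45503282 on opposite strands, 24614 bases apart.

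The 3 basement membrane genes had the smallest median difference of the role groups, -1.28. Their summed level was 2.59 times higher under the first code, above the 2.24 times of the cytoskeleton genes. Col4a1 and Col4a2 encode the chains of the most widespread collagen IV, and Nid1 encodes nidogen, which links collagen IV to laminin. Col4a1 had 72.6 CPM in TAF10KO, 55.3 and 56.9 in TAF10HET and 47.8 in WT of the second code, against 203 in TAF10KO, 123 in TAF10HET and 115 in WT of the first code. Col4a2 had 37.05 CPM in TAF10KO, 29.3 and 30.4 in TAF10HET and 27.8 in WT of the second code, against 99.4 in TAF10KO, 63.2 in TAF10HET and 57.3 in WT of the first code. Nid1 had 56.4 CPM in TAF10KO, 39.99 and 43.8 in TAF10HET and 40.2 in WT of the second code, against 152 in TAF10KO, 129.6 in TAF10HET and 103 in WT of the first code. TAF10KO was the highest library under both codes for each of them, unlike the fibrillar collagens. The log2 difference was -1.28 (SE 0.0772, adjusted p = 0.000188) for Col4a1, -1.18 for Col4a2 and -1.49 for Nid1. The ratio of Col4a1 to Col4a2, per kilobase of exon, was 1.53 to 1.81 over the 7 libraries.

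Col4a1 and Col4a2 lie head to head on chromosome 8 of mm10, at 11198423 to 11312826 on the minus strand and 11312805 to 11449287 on the plus strand, and their annotations overlap by 22 bases. Their promoter windows are shown because Col4a1 is the one gene of the 36 that passed the threshold between TAF10KO and WT; that of Col4a2 was added after its values were seen. They are RefSeq windows on GRCm38.p6 from 250 bases before to 50 bases after each start, at chr8:11312777-11313076 on the minus strand for Col4a1 and chr8:11312555-11312854 on the plus strand for Col4a2. Both are printed 5′ to 3′ in the direction of their gene, and capitals mark the letters CCAAT or, where they lie on the other strand, ATTGG.
Col4a1: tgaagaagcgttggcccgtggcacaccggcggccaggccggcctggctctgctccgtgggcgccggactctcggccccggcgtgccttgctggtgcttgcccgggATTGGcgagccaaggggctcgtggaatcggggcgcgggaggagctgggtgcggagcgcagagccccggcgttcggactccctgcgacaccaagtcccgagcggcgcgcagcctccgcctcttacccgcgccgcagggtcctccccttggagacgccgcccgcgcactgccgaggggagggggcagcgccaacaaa
Col4a2: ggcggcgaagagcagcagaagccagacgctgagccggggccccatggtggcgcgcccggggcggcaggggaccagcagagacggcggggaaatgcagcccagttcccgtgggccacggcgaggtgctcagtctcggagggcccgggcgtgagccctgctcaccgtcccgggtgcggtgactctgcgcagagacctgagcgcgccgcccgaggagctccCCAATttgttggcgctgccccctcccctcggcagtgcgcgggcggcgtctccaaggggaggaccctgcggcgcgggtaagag
The start sites are 21 bases apart, and the windows share 78 bases, read on opposite strands. Bases G and C made up 74.0% of the Col4a1 window and 73.7% of the Col4a2 window. Windows were available for 27 of the 36 genes, and CCAAT on either strand was in 11 of these (40.7%), against 37.4% of all 32544 windows. TATAAA was in 3 (11.1%), those of Col3a1, Postn and Vim, against 13.6% of all windows. ACGTG was in 6 (22.2%) against 19.7%, CANNTG was in 16 (59.3%) against 72.3%, and the CArG box was in 0 against 1.64%. Both strands were searched, and CANNTG can overlap ACGTG.

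The 3 other collagen genes had a median of -2.55 and a summed level 5.80 times higher under the first code. Col6a1 and Col6a2 encode chains of collagen VI, which forms beaded filaments around cells, and Col14a1 encodes a collagen that coats fibrils. Col6a1 had 21.6 CPM in TAF10KO, 8.23 and 6.97 in TAF10HET and 7.14 in WT of the second code, against 79.05 in TAF10KO, 74.96 in TAF10HET and 54.5 in WT of the first code. Col6a2 had 28.7 CPM in TAF10KO, 11.05 and 10.3 in TAF10HET and 8.44 in WT of the second code, against 84.3 in TAF10KO, 89.1 in TAF10HET and 60.99 in WT of the first code. Col14a1 had 17.01 CPM in TAF10KO, 11.2 and 11.8 in TAF10HET and 10.3 in WT of the second code, against 80.5 in TAF10KO, 75.5 in TAF10HET and 65.9 in WT of the first code. Under the second code the collagen VI genes were higher in TAF10KO than in any other liver, while under the first code the TAF10KO and TAF10HET livers were close. Col14a1 differed by -2.55 (SE 0.102, adjusted p = 7.05e-05), the smallest adjusted p of the 36 genes, and Col6a1 and Col6a2 by -2.74 and -2.52. Col6a2 and Col6a1 lie on chromosome 10 in the same orientation, 85161 bases apart.

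The proteoglycans and secreted matrix proteins held both large and small differences, with a median of -2.47. Dcn and Lum encode decorin and lumican, small proteoglycans that bind collagen fibrils. Dcn had 10.9 CPM in TAF10KO, 7.22 and 7.44 in TAF10HET and 5.56 in WT of the second code, against 30.9 in TAF10KO, 54.4 in TAF10HET and 44.3 in WT of the first code. Lum had 13.9 CPM in TAF10KO, 10.3 and 10.1 in TAF10HET and 10.01 in WT of the second code, against 51.3 in TAF10KO, 99.9 in TAF10HET and 69.01 in WT of the first code. In these genes TAF10KO was the highest liver of the second code and the lowest of the first code. Dcn differed by -2.49 (SE 0.285, adjusted p = 0.00177) and Lum by -2.71 (SE 0.254, adjusted p = 0.00092); they are neighbours on chromosome 10, 46984 bases apart, and Dcn stood at 0.228 to 0.328 of the level of Lum per kilobase of exon.

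Postn, Sparc and Fstl1 encode secreted proteins of the matrix: periostin, a collagen-binding glycoprotein and a follistatin-like glycoprotein. Postn had 13.7 CPM in TAF10KO, 9.89 and 9.38 in TAF10HET and 11.2 in WT of the second code, against 67.8 in TAF10KO, 97.1 in TAF10HET and 74.4 in WT of the first code. Sparc had 73.8 CPM in TAF10KO, 54.7 and 49.9 in TAF10HET and 45.3 in WT of the second code, against 229 in TAF10KO, 270.2 in TAF10HET and 176 in WT of the first code. Fstl1 had 43.8 CPM in TAF10KO, 24.6 and 23.7 in TAF10HET and 22.8 in WT of the second code, against 126 in TAF10KO, 218 in TAF10HET and 119 in WT of the first code. The TAF10HET liver was the highest of the first code for all 3 genes. Their log2 differences were -2.84 for Postn, -2.03 for Sparc and -2.45 for Fstl1. Reelin, encoded by Reln, is a large secreted glycoprotein that stellate cells make in liver. Reln had 143 CPM in TAF10KO, 148 and 180.2 in TAF10HET and 199.97 in WT of the second code, against 296 in TAF10KO, 225 in TAF10HET and 255 in WT of the first code. It had the smallest difference of the 36 genes, -0.60 (SE 0.138, adjusted p = 0.0129), and under the second code it was lowest in TAF10KO and highest in WT.

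The 6 growth factors, ligands and receptors had a median of -2.27, and their summed level was 3.58 times higher under the first code. Hgf, a growth factor for hepatocytes, had 3.53 CPM in TAF10KO, 2.01 and 2.34 in TAF10HET and 1.76 in WT of the second code, against 8.06 in TAF10KO, 11.4 in TAF10HET and 7.97 in WT of the first code. Cxcl12, the chemokine that binds Cxcr4 on blood stem and progenitor cells, had 65.1 CPM in TAF10KO, 46.9 and 54.6 in TAF10HET and 60.3 in WT of the second code, against 149.7 in TAF10KO, 174 in TAF10HET and 153 in WT of the first code. Jag1, a Notch ligand, had 2.07 CPM in TAF10KO, 1.62 and 1.47 in TAF10HET and 1.53 in WT of the second code, against 11.3 in TAF10KO, 10.6 in TAF10HET and 9.80 in WT of the first code. Jag1 had the largest difference of the group, -2.64 (SE 0.134, adjusted p = 0.000127), and Cxcl12 the smallest, -1.48 (SE 0.116, adjusted p = 0.000263), while Hgf differed by -1.93.

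Pdgfra and Pdgfrb encode receptors for platelet-derived growth factors, and Ngfr encodes the low-affinity neurotrophin receptor. Pdgfra had 17.5 CPM in TAF10KO, 10.9 and 6.92 in TAF10HET and 8.39 in WT of the second code, against 54.1 in TAF10KO, 82.9 in TAF10HET and 56.5 in WT of the first code. Pdgfrb had 14.8 CPM in TAF10KO, 9.23 and 8.20 in TAF10HET and 8.02 in WT of the second code, against 43.3 in TAF10KO, 55.7 in TAF10HET and 37.9 in WT of the first code. Ngfr had 4.20 CPM in TAF10KO, 2.40 and 2.46 in TAF10HET and 1.67 in WT of the second code, against 12.9 in TAF10KO, 14.6 in TAF10HET and 12.4 in WT of the first code. Each was at its highest of the second code in TAF10KO, below all 3 livers of the first code. The log2 differences were -2.58 for Pdgfra, -2.20 for Pdgfrb and -2.33 for Ngfr, and the ratio of Pdgfra to Pdgfrb, per kilobase of exon, averaged 0.581 under the second code and 0.770 under the first code.

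A role group of 6 stellate and pericyte genes, among them transcription factors and an enzyme, had a median of -2.24. Its summed level was 5.32 times higher under the first code. Lhx2, a LIM homeobox factor needed for normal stellate cells in mouse liver, had 5.55 CPM in TAF10KO, 3.59 and 4.10 in TAF10HET and 4.03 in WT of the second code, against 18.2 in TAF10KO, 24.3 in TAF10HET and 19.6 in WT of the first code. Hand2, a basic helix-loop-helix factor of mesenchyme, had 6.70 CPM in TAF10KO, 3.52 and 3.87 in TAF10HET and 3.66 in WT of the second code, against 23.99 in TAF10KO, 29.6 in TAF10HET and 26.7 in WT of the first code. Colec10, which encodes a secreted collectin, had 16.1 CPM in TAF10KO, 12.1 and 12.1 in TAF10HET and 13.3 in WT of the second code, against 72.5 in TAF10KO, 76.98 in TAF10HET and 84.99 in WT of the first code. Hand2 differed by -2.59 (SE 0.215, adjusted p = 0.000316), Lhx2 by -2.25 and Colec10 by -2.52. Hand2 shared 461 exon bases, 19.6% of its length, with Hand2os1 on the opposite strand, and since use of strand in counting is not stated, reads there cannot be told apart.

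Abcc9 encodes the regulatory subunit of a potassium channel of pericytes and smooth muscle, Rgs5 a regulator of G-protein signalling in pericytes, and Lrat the enzyme that makes retinyl esters. Abcc9 had 10.03 CPM in TAF10KO, 6.22 and 5.63 in TAF10HET and 6.12 in WT of the second code, against 41.6 in TAF10KO, 29.2 in TAF10HET and 30.6 in WT of the first code. Rgs5 had 6.54 CPM in TAF10KO, 2.01 and 1.35 in TAF10HET and 2.36 in WT of the second code, against 16.8 in TAF10KO, 14.4 in TAF10HET and 10.3 in WT of the first code. Lrat had 0.620 CPM in TAF10KO, 0.618 and 1.35 in TAF10HET and 0.556 in WT of the second code, against 2.36 in TAF10KO, 2.27 in TAF10HET and 1.89 in WT of the first code. Lrat was the least abundant of the 36 genes per kilobase of exon, and its TAF10HET replicate 3 value lay above the other second-code livers. Abcc9 differed by -2.22 (SE 0.0920, adjusted p = 7.09e-05), Rgs5 by -2.22 and Lrat by -1.61 (SE 0.316, adjusted p = 0.00657).

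The cytoskeleton genes encode desmin (Des) and vimentin (Vim), which form intermediate filaments, and smooth muscle actin (Acta2), and their median was -2.20. Des had 3.70 CPM in TAF10KO, 3.17 and 3.11 in TAF10HET and 2.78 in WT of the second code, against 11.7 in TAF10KO, 21.9 in TAF10HET and 10.4 in WT of the first code. Acta2 had 11.4 CPM in TAF10KO, 8.92 and 7.91 in TAF10HET and 6.40 in WT of the second code, against 40.5 in TAF10KO, 59.3 in TAF10HET and 32.2 in WT of the first code. Vim had 146 CPM in TAF10KO, 107 and 98.8 in TAF10HET and 101 in WT of the second code, against 229 in TAF10KO, 243 in TAF10HET and 191 in WT of the first code. Des was highest in TAF10HET replicate 1, the liver with high muscle genes. Vim, which many cell types make, differed by -0.97 (SE 0.107, adjusted p = 0.000665), less than Des at -2.20 and Acta2 at -2.37.

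The 4 mesothelial and adhesion genes had a median of -2.25. Wt1 and Tcf21 encode transcription factors of the mesothelium and of mesenchyme, and Alcam and Ncam1 encode cell adhesion molecules. Wt1 had 4.54 CPM in TAF10KO, 3.17 and 2.64 in TAF10HET and 2.55 in WT of the second code, against 12.51 in TAF10KO, 23.3 in TAF10HET and 14.3 in WT of the first code. Tcf21 had 2.25 CPM in TAF10KO, 2.24 and 1.47 in TAF10HET and 1.67 in WT of the second code, against 8.98 in TAF10KO, 7.91 in TAF10HET and 8.74 in WT of the first code. In Tcf21 the genotypes of the first code were close, and in Wt1 the TAF10HET liver was the highest of the first code. Alcam had 43.2 CPM in TAF10KO, 32.3 and 36.3 in TAF10HET and 33.3 in WT of the second code, against 109 in TAF10KO, 181 in TAF10HET and 120.1 in WT of the first code. Ncam1 had 4.45 CPM in TAF10KO, 2.36 and 1.76 in TAF10HET and 1.99 in WT of the second code, against 13.7 in TAF10KO, 18.8 in TAF10HET and 13.7 in WT of the first code. The log2 difference was -2.36 for Wt1, -2.13 for Tcf21, -1.92 for Alcam and -2.54 for Ncam1.

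**Figure D3:**
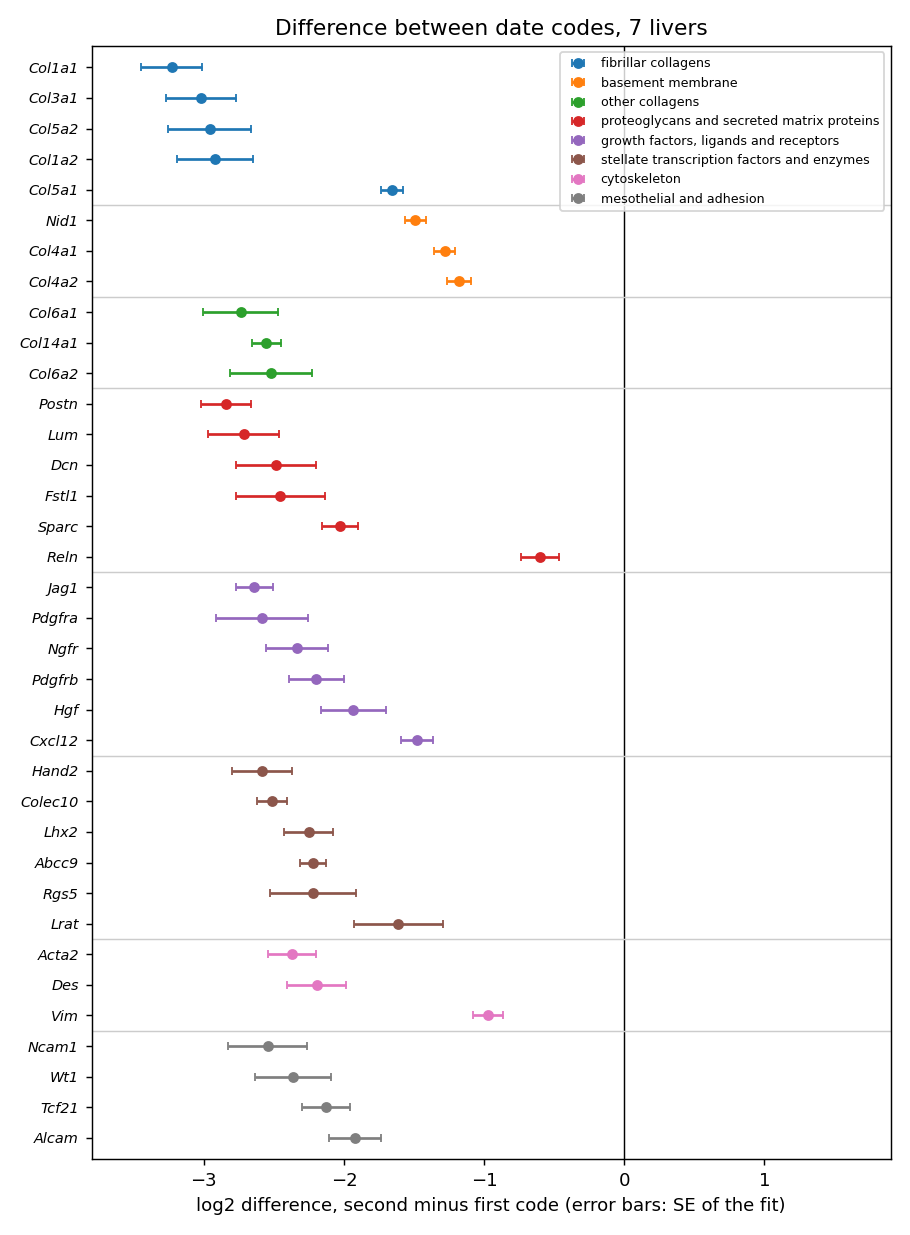
Log2 difference of each of the 36 genes, second code over first code, with bars of 1 SE, coloured by role group. All 36 values are below 0, between -3.23 for Col1a1 and -0.60 for Reln.

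On a scale that allows comparison between genes, the mean over the 7 libraries in CPM per kilobase of exon, the most abundant of the 36 were Col1a1 at 40.96, Sparc at 33.9, Vim at 33.6 and Col3a1 at 31.7. The least abundant was Lrat at 0.258.

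Genes that work with the 36 fell under the second code in most cases. Of 24 genes for collagen processing 22 fell with a median of -1.40, among them Adamts2, a protease that trims procollagens (-2.69), P4ha3, a prolyl hydroxylase subunit (-2.22), and Bmp1, which trims the other end of procollagens (-1.28). Of 19 other collagen genes 16 fell with a median of -2.51, such as Col11a1 (-2.75), Col25a1 (-2.56) and Col27a1 (-1.15). All 14 laminin and basement membrane genes fell with a median of -1.76, including Npnt, which encodes nephronectin (-2.57), Lama1 (-1.91) and Fras1 (-1.80). Of 25 other matrix genes tested 22 fell with a median of -2.05, among them Bgn, Fbn1 and Fbln1 at -2.42, -2.37 and -1.37. Matrix proteases and their inhibitors fell in 12 of 15 genes tested with a median of -1.67, and those with the smallest adjusted p were Adamts1, Timp2 and Mmp14 at -2.18, -1.93 and -1.37.

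Signalling partners moved less uniformly. Of 16 genes of PDGF and TGF-beta signalling 14 fell and 1 rose, with a median of -1.30: Tgfbi, Smad7 and Tgfbr3 had -1.51, -1.13 and -0.68, and the cytokine gene Tgfb1 rose by 0.51. Of 11 Notch partners of Jag1 10 fell with a median of -0.96, among them Notch3 (-1.72), Notch4 (-0.96) and Hes1 (-0.86). In a list of 14 genes, most of them receptors for the secreted proteins, 9 fell and 1 rose, with a median of -0.78. The collagen receptor Ddr1, the chemokine receptor Ackr3 and the integrin subunit Itgav fell by 2.51, 1.25 and 1.06 on the log2 scale, and Kit, the receptor of early blood progenitors, rose by 0.55.

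Other mesenchymal and mesothelial markers moved in the direction of the 36 genes. Of 22 transcription factors of these lineages 19 fell with a median of -1.76, and those with the smallest adjusted p were Foxf1 (-2.63), Snai2 (-2.30) and Gata6 (-1.55). Mesothelial markers fell in 10 of 11 genes tested with a median of -2.76, among them Aldh1a2 (-3.06), Upk3b (-2.88) and Cdh3 (-2.78). Smooth muscle and pericyte markers fell in 11 of 13 with a median of -1.85 (Actg2 -2.31, Tagln -1.85, Myl9 -1.03), and portal fibroblast and neural-like stellate markers in 10 of 12 tested with -1.43 (Gas6 -1.77, Eln -1.46). Genes of tissues next to the liver fell too: Nkx2-3, Sfrp1 and Barx1 of stomach, gut and lung mesenchyme had -3.16, -2.89 and -2.17, 6 of 8 neural genes tested fell with a median of -1.80, and 3 of 5 cartilage and bone genes tested fell with -0.88.

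**Figure D4:**
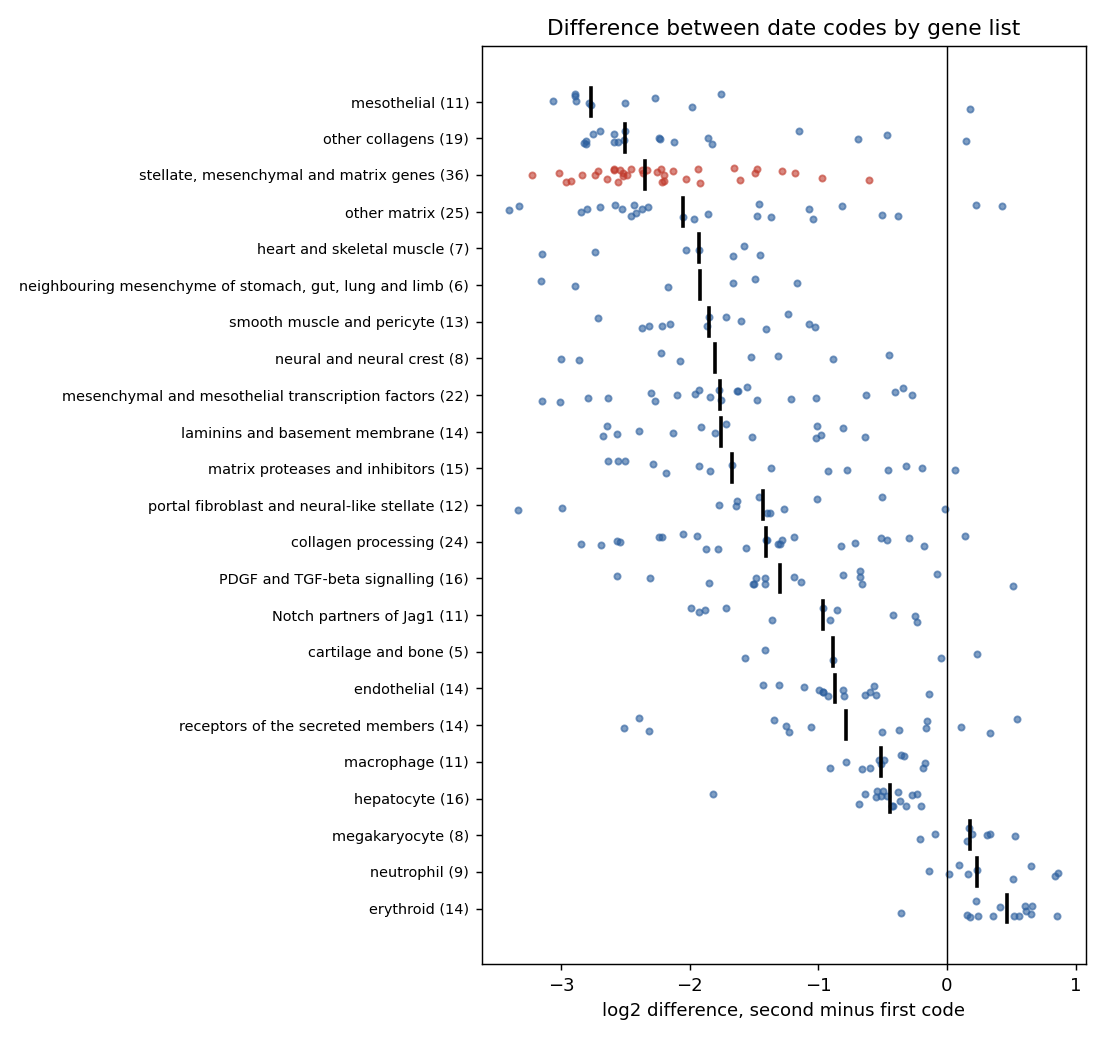
Log2 difference, second code over first code, of each tested gene in the 36-gene list, in related matrix and signalling lists and in marker lists of other cells, with the median of each list. The medians run from -2.76 for mesothelial markers to 0.46 for erythroid genes, and that of the 36 genes is -2.35.

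Between TAF10KO and WT, compared within date codes, 1 of the 36 genes rose and 0 fell in the edgeR test, where 0.481% of all genes tested rose and 0.127% fell, 0.608% in all; 12 of the 36, and 2830 of all 15800 genes, had an unadjusted p under 0.05. The gene was Col4a1, at 0.71 (SE 0.0995, adjusted p = 0.0389) on the log2 scale, and its TAF10KO values given above were higher than WT under both codes. The fitted difference was above 0 for 35 of 36 genes, with a median of 0.51 beside 0.03 over all genes, but the other 35 did not pass the threshold. The nearest were Col4a2 with 0.61 (SE 0.108, adjusted p = 0.0608), Nid1 with 0.53 (SE 0.0956, adjusted p = 0.0636) and Abcc9 with 0.57 (SE 0.118, adjusted p = 0.0844). The call of Col4a1 rested on the date term and on single libraries: its adjusted p was 1 with no date term, 0.356 without WT replicate 1, 0.660 without WT replicate 2, 0.0860 without TAF10HET replicate 2 and 0.134 without TAF10HET replicate 3. The log2 difference itself was 0.76 with no date term and 0.69 to 0.73 without each of these libraries.

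The 2 date codes gave unequal differences between TAF10KO and WT. Under the second code the TAF10KO liver was above the WT liver for 35 of 36 genes with a median log2 difference of 0.71, and under the first code for 26 of 36 genes with 0.18. The share of all genes above WT under a single code was not computed. TAF10KO was above WT under both codes for 25 of 36 genes, where 34.3% of all genes were. TAF10KO replicate 2 was the highest of the 4 livers of the second code for 34 of 36 genes, all but Reln and Lrat, where it was highest for 34.8% of all genes. Without this library the fitted median of the 36 was 0.06, and without TAF10KO replicate 1 it was 0.80. Some summed marker lists were also higher in TAF10KO replicate 2, with the stomach, gut, lung and limb mesenchyme list at 25.9 CPM in TAF10KO against 12.7 CPM in WT of the second code, and at 115 CPM in TAF10KO against 86.9 CPM in WT of the first code. Endothelial markers were at 397 CPM in TAF10KO against 301 CPM in WT of the second code. Under the first code they were at 758 CPM in TAF10KO against 567 CPM in WT. Mesothelial, neutrophil and megakaryocyte markers had 313, 482 and 565 CPM in TAF10KO of the first code, against 264, 381 and 567 in WT. Under the second code these had 300, 784 and 736 CPM in TAF10KO, against 165, 474 and 525 in WT. Other lists were lower in TAF10KO of that code: hepatocyte markers at 14403 CPM in TAF10KO against 18839 CPM in WT, macrophage markers at 164 CPM against 216 CPM in WT, erythroid markers at 37284 CPM against 49338 CPM in WT, and portal fibroblast and neural-like stellate markers at 93.9 CPM against 103 CPM in WT. The mesothelial sum was 1.39 times higher under the first code, though 10 of its 11 genes tested fell with a median of -2.76. It therefore does not follow most genes of that list, of which Podxl was the most abundant per kilobase of exon. The part of the marker lists in the result was not tested.

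**Figure D5:**
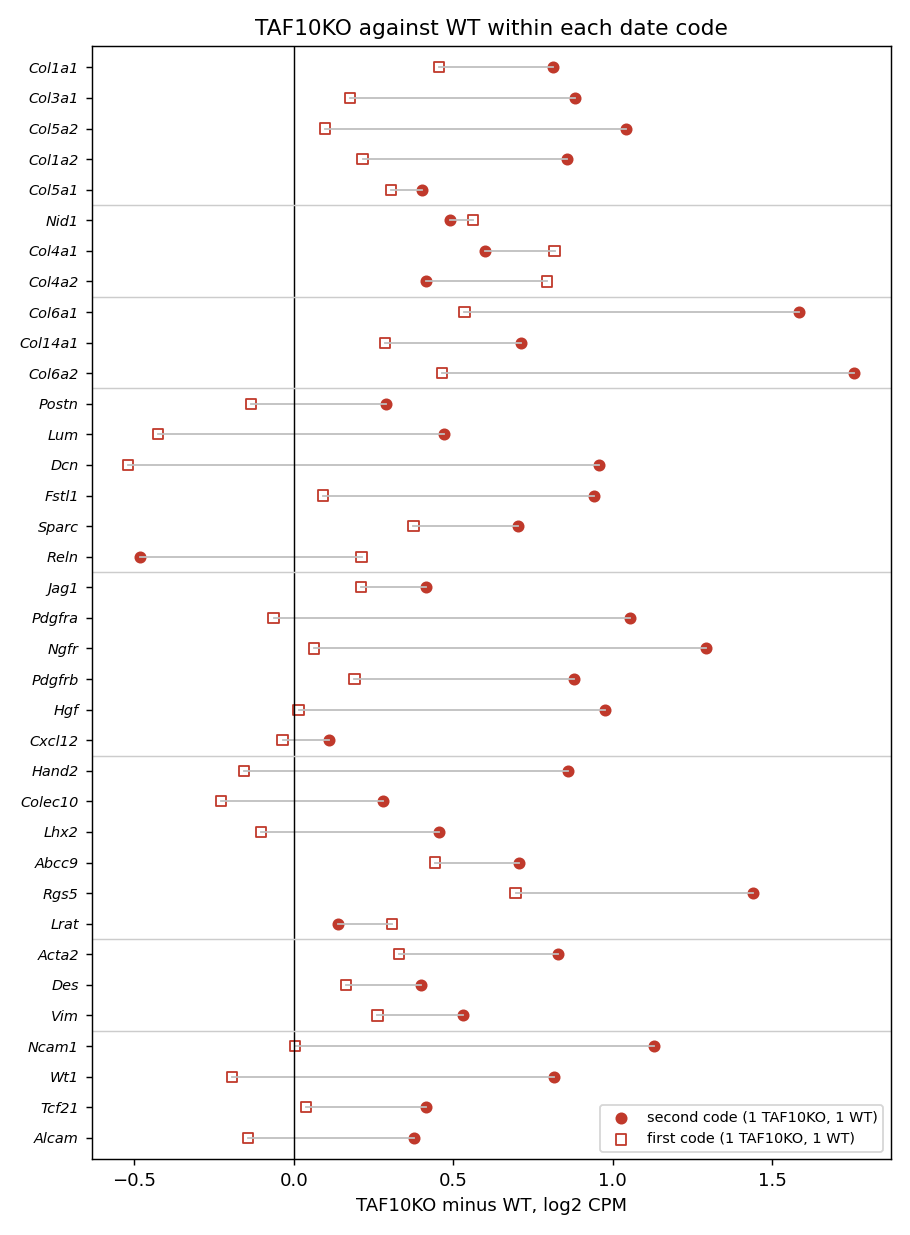
Log2 difference of each of the 36 genes between TAF10KO and WT, under the second code and under the first code, with 1 TAF10KO and 1 WT liver per code. The second-code values are above 0 for 35 genes and the first-code values for 26.

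In a fit with 1 mean per genotype and date code, the difference between TAF10KO and WT was larger under the second code than under the first code for 8 of the 36 genes at an adjusted p below 0.05, where 0.443% of all genes tested were larger and 0.703% smaller. The 8 genes were Dcn at 1.49 (SE 0.180, adjusted p = 0.00778), Col6a2 at 1.30 (SE 0.143, adjusted p = 0.00607), Col6a1 at 1.06, Col5a2 at 0.95, Lum at 0.90, Fstl1 at 0.85, Col3a1 at 0.71 and Col1a2 at 0.64. In Dcn, for example, the log2 difference between TAF10KO and WT was 0.96 under the second code and -0.52 under the first code. In Col6a2 it was 1.76 under the second code and 0.47 under the first code. The basement membrane genes were not among the 8, and Col4a1 had 0.60 under the second code and 0.82 under the first code. The spread in this fit comes from 1 residual degree of freedom, the pair of TAF10HET livers of the second code, so it assumes that the single livers vary like that pair. With median-of-ratios factors the calls over all genes were 53 larger and 43 smaller, in place of 70 larger and 111 smaller, and the same count of 8 held among the 36.

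Partners of the 36 genes changed in few cases between TAF10KO and WT. P4ha1, a catalytic subunit of prolyl hydroxylase, rose by 0.99 (SE 0.0980, adjusted p = 0.0126), and Vldlr, a receptor for reelin, rose by 1.14 (SE 0.161, adjusted p = 0.041). P4ha1 was the 1 gene called of 24 for collagen processing and Vldlr the 1 called of the 14 genes in the receptor list. Among the marker lists, the endothelial genes Flt1 and Pecam1 rose by 1.18 (adjusted p = 0.0244) and 0.64 (adjusted p = 0.0438), and the transferrin receptor gene Tfrc, of the erythroid list, fell, at -0.84 (adjusted p = 0.0438). Each of these calls was lost without either WT library, without TAF10HET replicate 3 and with no date term. Those of Vldlr, Pecam1 and Tfrc were also lost without TAF10HET replicate 2 and with non-robust dispersions.

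Between TAF10KO and TAF10HET, 2 of the 36 genes rose and 0 fell, where 1.15% of all genes tested rose and 0.456% fell, 1.61% in all; 7 of the 36, and 2705 of all 15800 genes, had an unadjusted p under 0.05. Abcc9 rose by 0.64 (SE 0.108, adjusted p = 0.0374) and Col4a1 by 0.53 (SE 0.0911, adjusted p = 0.041), and both were higher in TAF10KO than in every TAF10HET liver of the same code. Over the 36 genes the codes went different ways. Under the second code TAF10KO was above both TAF10HET livers for 34 genes with a median log2 difference of 0.54. Under the first code it was above TAF10HET for 11 genes with a median of -0.27. The share of all genes with these directions was not computed. The calls of Abcc9 and Col4a1 were lost without WT replicate 1 or 2, without TAF10HET replicate 2 or 3, and with no date term. Both were also lost with only the groups compared, and that of Abcc9 without TAF10KO replicate 2. The fitted median of the 36 was 0.19, and it was 0.46 without TAF10KO replicate 1 and below 0 without TAF10KO replicate 2.

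TAF10KO also differed from TAF10HET in partner genes. P4ha1 rose by 0.99 (adjusted p = 0.00475) and Vldlr by 1.28 (adjusted p = 0.0119). Ackr3, a receptor that takes up Cxcl12, fell, with a log2 difference of -0.99 (adjusted p = 0.0171). All 3 of these calls were lost without TAF10HET replicate 3 and with no date term. Those of Vldlr and Ackr3 were also lost without either WT library, without TAF10HET replicate 2 and with only the groups compared. These comparisons share the TAF10KO livers with those against WT and are not independent of them.

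Between TAF10HET and WT, 0 of the 36 genes were called in the edgeR test and 0 by DESeq2; 2 of the 36 had an unadjusted p under 0.05, and 0.00633% of all genes tested rose, which was the globin gene Hbb-bt alone, and 0 fell. Over all genes, 530 had an unadjusted p under 0.05 in this comparison. The median log2 difference was 0.25 over the 36 genes. Under the second code both TAF10HET livers were above WT for 20 genes with a median of 0.11, and under the first code the TAF10HET liver was above WT for 32 genes with 0.45. The share of all genes with these directions was not computed. Without TAF10HET replicate 1, the liver with high muscle genes, the fitted median of the 36 was -0.11.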

How the data were processed

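The whole-number read counts per Ensembl gene were deposited by the authors, 1 file per library, with no normalisation. TopHat2 2.0.8, DESeq2 and the mm10 build were used, per the submitters' processing notes. The counting program and its strand setting were not given in the sources used here, nor was the annotation release. Per the labels' protocols, total RNA was extracted with Trizol and libraries were made with the TruSeq version 2 kit. Summary lines for reads in no gene (6.81% to 10.1% of reads counted), ambiguous between genes (3.98% to 5.94%) and aligned to several places (14.1% to 22.2%) were left out. Symbols came from GENCODE M21, which matched 37693 of 39017 identifiers. Exons of 12 of the 36 genes overlapped another gene, over 10% of the length for Hand2.

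Tests used edgeR 4.0.16 in R 4.3.3 on all 7 libraries, with genotype and date code as terms: low counts were removed with filterByExpr by group, scaling was by TMM, dispersions were robust, and the quasi-likelihood F test was applied with 3 residual degrees of freedom. P-values were two-sided and adjusted over the 15800 genes tested (Benjamini-Hochberg, threshold 0.05). SE is the size of the log2 difference divided by the square root of F. Values within a code or genotype are differences of log2 CPM with a prior count of 2. The scripts were tested on simulated counts. The date code served as the replicate block; across genes, deviations from group means correlated at 0.40 to 0.74 in 8 pairs of libraries with the same code and at -0.74 to -0.40 in 8 pairs with different codes, which mirror each other by construction in groups of 2. Replicate numbers were given in accession order; number 1 falls on the liver of the first code in each group, and the block comes from the code, not from the number. No library repeated another.

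The 36 genes, the lists and the tests were chosen with earlier results of these data known. Values per library were printed for genes called in any comparison, and from each other list up to 3 called genes with the smallest adjusted p in each direction; 2 genes that this rule names are not reported here. Of the list symbols, Muc16 and the older names Cyr61 and Ctgf were not matched. Alternatives were other scaling factors, DESeq2 1.42.0, other filters, globin genes left out of totals, non-robust dispersions, no date term, only the groups compared, and each library left out; leaving out all TAF10HET livers, and refitting the difference between date codes without TAF10HET replicate 1, were added after seeing the data.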

Additional observations from a re-analysis of the deposited data

Results flagged for a closer look

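Within the 4 livers of the second code, 9 of the 36 genes had 1 library whose gap to the nearest other liver exceeded Dixon's 95% critical value for 4 samples, as a share of the whole range; chance gives this in about 1 of 20 groups of 4. The share of all genes tested that meets this criterion was not computed, and the 36 genes were measured in the same 4 livers. The count of 9 is therefore not set against a background. The flagged library was TAF10KO replicate 2, as the highest, for 8 of the 9 genes. That library was the highest of the 4 for 34.8% of all genes. Its values were 116 CPM for Col3a1, 86.7 CPM for Col1a2, 43.8 CPM for Fstl1, 28.7 CPM for Col6a2, 21.6 CPM for Col6a1, 13.9 CPM for Lum, 10.03 CPM for Abcc9 and 6.70 CPM for Hand2. The summed level of the 36 genes, 1264 CPM, met the same criterion. The ninth gene was Lrat, at 1.35 CPM in TAF10HET replicate 3. As only 1 TAF10KO liver carries this code, the liver and the genotype cannot be told apart within it.

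The difference between TAF10KO and WT was larger under the second code than under the first, in the edgeR test of that difference, for Dcn by 1.49, Col6a2 by 1.30, Col6a1 by 1.06, Col5a2 by 0.95, Lum by 0.90, Fstl1 by 0.85, Col3a1 by 0.71 and Col1a2 by 0.64 on the log2 scale. Each code holds 1 TAF10KO and 1 WT liver, and the spread rests on 1 residual degree of freedom.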

How the results depend on the processing

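The comparison of the second code with the first changed little: 36 genes fell under each alternative and each left-out library, except 35 with a filter of 5 CPM in 2 libraries, which removed 1 gene from testing, and 34 in TAF10KO and WT libraries alone, where 4311 genes were called in place of 6536. Over left-out libraries the calls ran from 3206 genes without WT replicate 2, and 3207 without WT replicate 1, to 7303 without TAF10KO replicate 1, and the median of the 36 from -2.71 to -2.07. No direction reversed for a called gene.

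The replicate block decided the genotype comparisons: with no replicate block, 0 genes were called in each, hence 0 of the 36, and the median of the 36 was 0.0045 for TAF10HET against WT and 0.27, in place of 0.51, for TAF10KO against WT. For TAF10KO against WT, 96 genes and 1 of the 36 were called. DESeq2 called 589 and 4, no filter on low counts 1399 and 21, only the groups compared 553 and 7, non-robust dispersions 53 genes, and upper-quartile factors 2 of the 36. Over left-out libraries the ranges were 0 to 1282 genes, 0 to 21 of the 36, and a median of 0.064 to 0.80. For TAF10KO against TAF10HET, 254 genes and 2 of the 36 were called, against 690 and 4 by DESeq2, 1498 and 9 with no filter and 26 and 0 with only the groups compared; left-out libraries gave 16 to 1203 genes and 0 to 13 of the 36, with medians of -0.28 to 0.46. For TAF10HET against WT, 1 gene was called, against 9 by DESeq2, 289 with no filter (7 of the 36), 7 with only the groups compared and 0 with non-robust dispersions; left-out libraries gave 0 to 13 genes, 0 of the 36 and medians of -0.11 to 0.32. The difference between date codes gave 181 genes and 8 of the 36, against 96 genes with median-of-ratios factors, and 714 genes and 18 of the 36 with no filter. In both comparisons of TAF10KO, each of the 7 left-out libraries moved the count of called genes by over 1.5 times. The cause of these changes was not tested.
Leaving out a TAF10KO or WT library leaves that group with 1 liver, assumed to vary like the other groups. The difference between date codes called 145 genes and the same 8 of the 36 without TAF10HET replicate 1, a setting added after seeing the data. Without TAF10HET replicate 2 or 3 it has no residual degree of freedom, and without a TAF10KO or WT library 1 of the means it compares is missing. Counts are low for Lrat, with 12 reads in WT replicate 2.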
